A study of Homo sapiens with 12 samples.

Results

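The comparison asks where L1236 and L428 cells differed in their transcript response to 5-Aza-dC, which is the line-by-drug interaction. For each gene, the change in L428 (treated minus untreated) was subtracted from the same change in L1236. All 12 of the 12 arrays of the series entered it, as 4 groups of 3. L428 and L1236 are established lines grown from classical Hodgkin lymphoma, and both were measured untreated and after exposure to 5-Aza-dC at 1 µM, which lasted 24 h and was succeeded by 72 h in drug-free medium. Both lines grew in RPMI1640 with 10% FBS. Each line stands for a single tumour, so a difference between them is a difference between these lines. The labels give triplicates without saying whether each was its own culture, and the p-values therefore speak to the spread among these arrays, which may be technical.

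Decitabine, as 5-Aza-dC is also called, enters DNA in place of deoxycytidine during replication and traps DNA methyltransferases, so that daughter strands lose methylation. A gene held silent by promoter methylation can then be transcribed, provided that the cell has the factors that drive it. Loss of methylation can also release repeats whose double-stranded RNA is read by cytosolic sensors, which switch on interferons and, through their receptors, the interferon-stimulated genes. Hodgkin Reed-Sternberg cells, the tumour cells of this lymphoma, derive from B cells whose identity genes are largely silent, and depend on NF-kappaB and JAK-STAT signalling. Methylation itself was not measured, and in bulk samples fewer transcripts per cell and fewer cells with a transcript cannot be told apart.

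Levels are log2 signals, on which 1 unit is a 2-fold step, and differences are given in log2 units ± SE. Calls were made where limma's two-sided p, after Benjamini-Hochberg adjustment over 19775 genes, was under 0.05. A positive difference means a larger rise, or a smaller fall, in L1236. A group mean under 4 is called low, since 59.1% of all values in the table lay under 4. Steps that start there depend in size on where the submitters' processing set that lower end, and signals of different genes are not compared as amounts.

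A conflict between labels and 4 arrays that stand apart bear on every value. The source name of untreated L1236 array 1 describes treated L428 cells, while its description gives untreated L1236. Its values correlated best with untreated L1236 array 3, at 0.995 across genes. Treated L428 array 1 correlated best with untreated L428 array 1 (0.989), above its best partner in its own group (0.983). In each group the array numbered 1 stood farthest from the group mean, with an SD of its deviations of 0.236 to 0.449 against 0.156 to 0.272 for the other arrays. The number of called differences over all genes and in each gene list is therefore given with and without the 4 arrays numbered 1. Classes by response or starting level, and rises within a line per list, were counted with all 12 arrays only. Without them 11.4% of all genes were called higher and 12.4% lower, and the counts of each gene list without them are read against these shares.

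The response differed between the lines for 914 of 19775 genes, which is 4.62% of those tested. It was higher in L1236 for 527 of them (2.66%) and lower for 387 (1.96%). At least a 2-fold difference was present for 699 of them (3.53%), 402 higher (2.03%) and 297 lower (1.5%). Without the 4 arrays numbered 1, 4697 genes (23.8%) were called, 2252 higher and 2445 lower, and 856 of the 914 were among them in the same direction. With any single array left out, the interaction was called for between 442 genes, without untreated L1236 array 3, and 2112, without treated L1236 array 1. It was 1954 without treated L428 array 1. The share of higher calls was 57.7%, and it was 47.4% (458 higher, 509 lower) when every array was centred on its median over genes, which shifted the median difference of all genes from -0.0095 to -0.0582. The excess of higher over lower calls therefore depends on the scaling.

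In the same fit, 2955 genes (14.9%) changed in L1236, 1699 up (8.59%) and 1256 down (6.35%), and 920 (4.65%) changed in L428, 656 up (3.32%) and 264 down (1.34%). Both totals were larger and closer to each other without the arrays numbered 1 and under median centring, as given further below. The gap between the lines in these totals therefore depends on the arrays and the scaling. The untreated lines differed for 5699 genes, 28.8% of those tested. Among the 914, the largest class was 326 genes that were at least 2-fold higher after the drug in L1236 and under 2-fold changed in L428. The mirror class, at least 2-fold higher in L428 with a change under 2-fold in L1236, held 118. In 112 genes the signal was at least 2-fold lower after the drug in L1236 and under 2-fold changed in L428, while 8 genes showed the mirror of that. Both lines moved up by at least 2-fold in 43 genes. Changes of at least 2-fold ran in opposite directions in 18, of which 13 went down in L1236 and up in L428 and 5 the other way. In the remaining 289 genes each line changed by under 2-fold. These classes, and those by starting level below, rest on group means of all 12 arrays, and a change within a line did not have to pass. Of genes up in both lines, for example, OAS1 did not pass in L1236 (limma adjusted p = 0.151), nor IL13 in L428 (0.364). Of those with opposite directions, TBX19 did not pass in L428 (0.38).

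**Figure D1:**
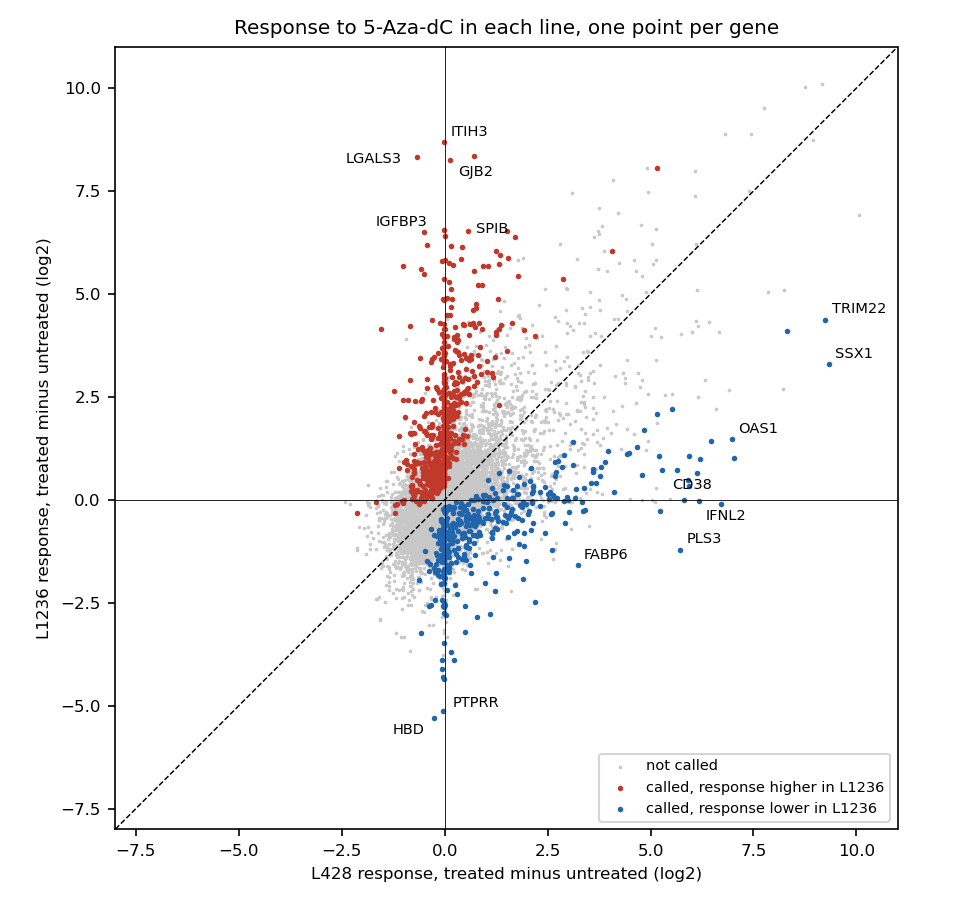
Each point is 1 gene, with its response in L428 on the horizontal axis and in L1236 on the vertical axis (log2, treated minus untreated, means of 3 arrays); red and blue points are the 527 and 387 called genes, and the dashed line marks equal response. The called genes spread mostly along the vertical axis (a response in L1236 alone, such as ITIH3) and to the right along the horizontal axis (a response in L428 alone, such as IFNL2), with PTPRR and HBD lower after the drug in L1236.

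The starting levels sorted the called genes further. Of the 568 genes that were low in untreated L1236 and expressed in untreated L428, 58 were called with a signal at least 2-fold higher after the drug in L1236 and not in L428. Their median level was 9.12 in untreated L428 and 2.87 in untreated L1236, and it reached 6.59 in treated L1236. In 48 of the 58 the treated L1236 mean was still below that of treated L428. Of the 741 genes with the opposite start, low in L428 and expressed in L1236, 29 were called with such an increase in L428 and not in L1236. Their median went from 3.06 to 5.45 in L428 against 8.85 in untreated L1236, and 23 of the 29 stayed below treated L1236. Of the 8765 genes low in both lines, 134 were called with such an increase in L1236 alone and 21 with one in L428 alone. Genes expressed in both lines made up 115 of those up in L1236 only and 62 of those up in L428 only.

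**Figure D2:**
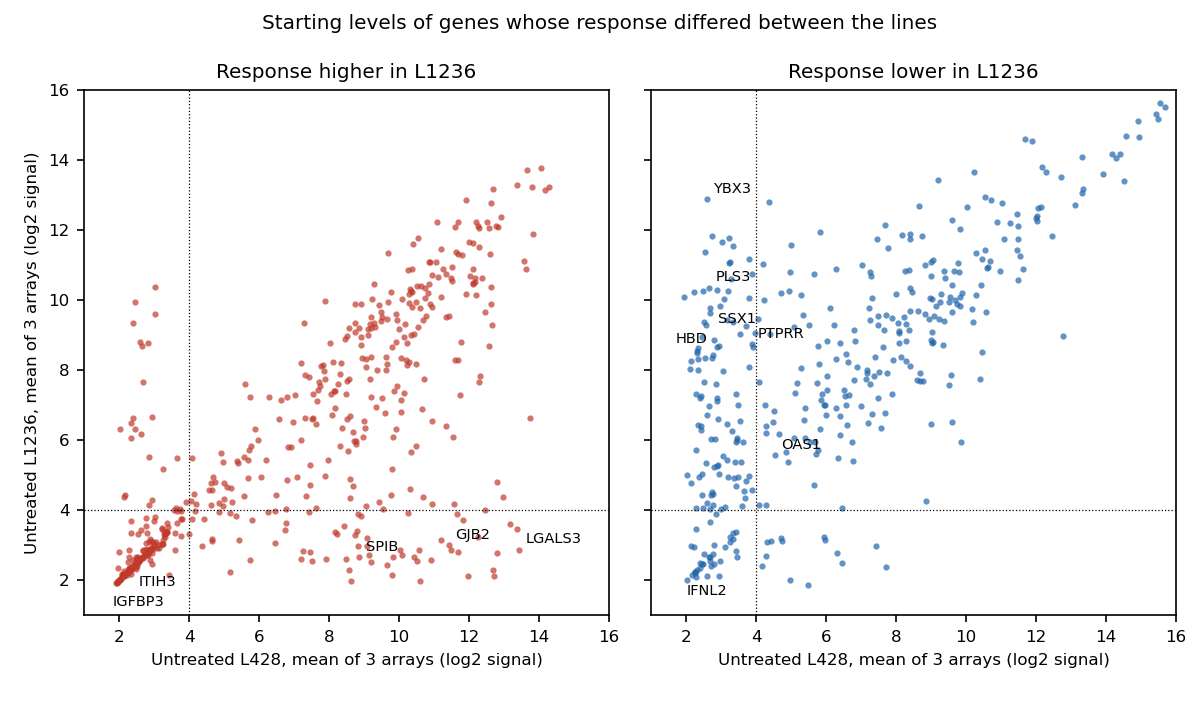
Mean log2 signal of each called gene in untreated L428 (horizontal) and untreated L1236 (vertical), with the 527 genes of higher response in L1236 on the left and the 387 of lower response on the right; dotted lines mark the level of 4. The left panel has a band of genes low in L1236 and expressed in L428, to which LGALS3, GJB2 and SPIB belong, and the right panel has a band low in L428 and expressed in L1236, to which PLS3, YBX3, HBD and PTPRR belong.

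Many of the largest differences in favour of L1236 belonged to genes that L428 already expressed. LGALS3 encodes galectin-3, a lectin that binds beta-galactosides. In L428 its signals were 13.53, 13.38 and 13.41 untreated and 13.21, 12.55 and 12.51 treated. In L1236 they were 3.04, 2.78 and 2.78 untreated and 10.46, 11.54 and 11.60 treated. The treated and untreated L1236 arrays lay far apart, and treated L1236 stayed below every L428 array. The difference was 9.02 ± 0.43 (limma adjusted p = 5.68e-06), or 7.88 with values under 4 set to 4. The second probe set of LGALS3 gave -0.08, so the value rests on 1 of 2 probe sets.

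GJB2, the gap-junction protein connexin 26, also started far apart and ended close to the L428 level. Its signals were 11.31, 11.48 and 11.50 in untreated L428 and 11.31, 11.75 and 11.63 in treated L428. Untreated L1236 arrays read 2.90, 3.09 and 3.0, and treated ones read 10.85, 11.46 and 11.47. Arrays 2 and 3 of treated L1236 overlapped the L428 range. The difference was 8.13 ± 0.25 (limma adjusted p = 3.72e-07), from its only probe set.

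The stretch of 250 bases before the start of each of these genes is shown because promoter methylation, which the drug can reduce, sits mainly on CpG. The sequences are from RefSeq on GRCh38.p14 and run 5′ to 3′ on the strand of the gene, with CpG in capitals. LGALS3 and GJB2 were low only in L1236. IGFBP3 and ITIH3, described below, were low in both lines and responded in L1236 alone, and YBX3 was low only in L428.
LGALS3, chr14:55129002-55129251, plus strand: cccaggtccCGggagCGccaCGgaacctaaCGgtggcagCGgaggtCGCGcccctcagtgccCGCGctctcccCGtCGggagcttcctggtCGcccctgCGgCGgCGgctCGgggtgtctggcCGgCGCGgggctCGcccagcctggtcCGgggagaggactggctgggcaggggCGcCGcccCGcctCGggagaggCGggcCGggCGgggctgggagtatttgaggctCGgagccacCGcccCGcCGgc
GJB2, chr13:20192939-20193188, minus strand: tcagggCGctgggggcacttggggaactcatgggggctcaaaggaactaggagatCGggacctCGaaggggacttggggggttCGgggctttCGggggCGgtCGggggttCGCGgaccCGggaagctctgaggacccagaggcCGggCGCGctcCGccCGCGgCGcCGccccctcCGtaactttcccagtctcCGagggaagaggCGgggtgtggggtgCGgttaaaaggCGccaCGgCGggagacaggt
IGFBP3, chr7:45921273-45921522, minus strand: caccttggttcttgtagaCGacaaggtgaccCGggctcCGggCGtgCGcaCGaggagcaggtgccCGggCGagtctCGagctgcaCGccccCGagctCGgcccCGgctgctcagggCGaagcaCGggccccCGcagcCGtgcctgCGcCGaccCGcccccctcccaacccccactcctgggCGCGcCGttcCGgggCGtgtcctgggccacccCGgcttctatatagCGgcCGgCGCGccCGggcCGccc
ITIH3, chr3:52794546-52794795, plus strand: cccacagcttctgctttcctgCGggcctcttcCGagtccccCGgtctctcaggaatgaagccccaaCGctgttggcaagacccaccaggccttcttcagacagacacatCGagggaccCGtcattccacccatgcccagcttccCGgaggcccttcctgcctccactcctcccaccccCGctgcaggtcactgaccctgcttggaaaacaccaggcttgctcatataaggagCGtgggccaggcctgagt
YBX3, chr12:10723324-10723573, minus strand: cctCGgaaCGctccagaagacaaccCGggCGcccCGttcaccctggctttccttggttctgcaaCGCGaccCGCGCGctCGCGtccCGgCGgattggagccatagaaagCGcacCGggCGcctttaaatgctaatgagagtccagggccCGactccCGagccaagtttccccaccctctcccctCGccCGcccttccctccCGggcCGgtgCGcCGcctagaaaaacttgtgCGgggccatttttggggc

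The windows hold 32 CpG for LGALS3, 25 for GJB2, 32 for IGFBP3, 9 for ITIH3 and 26 for YBX3. The median over the 15360 tested genes with a RefSeq promoter was 17, with quartiles of 8 and 25. Over all genes low in both untreated lines, the starting pattern of ITIH3 and IGFBP3, the median was 8.9, with quartiles of 3 and 20. ITIH3 lay near that median and IGFBP3 above the upper quartile. Methylation of these bases was not measured.

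Other genes with a low start in L1236 and a high one in L428 included members of the S100 family of calcium-binding proteins. S100A11 went from 3.07, 2.88 and 2.66 to 10.64, 11.33 and 11.68 in L1236, against 11.13 to 11.75 in untreated and 11.82 to 12.48 in treated L428. All untreated L1236 arrays lay far below all others. The S100A11 difference was 7.63 ± 0.41 (limma adjusted p = 1.37e-05), and for S100A6 it was 5.99 ± 0.27 (adjusted p = 5.18e-06), where the second probe set gave -0.41. Of 26 measured S100 and galectin genes, 7 were called higher and 0 lower, beside 2.66% and 1.96% of all genes, the list median was 0.07, and 15 members were low in all 4 groups. The counts were 8 and 3 without the arrays numbered 1. This list was drawn up with LGALS3 and S100A11 already known to differ, so its count is no independent support. S100A16 (3.34), S100P (2.51), S100A10 (2.16) and LGALS1 (0.83) made up the rest of the 7.

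RFLNB, an actin-organising partner of filamins, differed by 7.01 ± 0.61, CTHRC1, a secreted matrix-associated protein, by 6.69 ± 0.44, and PRAC1, a small nuclear protein, by 6.63 ± 0.54. ICAM3, a leukocyte adhesion molecule, differed by 6.18 ± 0.46. Untreated L1236 arrays of these 4 genes ran from 2.28 (CTHRC1) to 3.12 (ICAM3), and treated ones from 7.72 (CTHRC1) to 9.89 (RFLNB). In L428 the change passed for 0 of the 4 (limma adjusted p from 0.114 for CTHRC1 to 0.59 for PRAC1). ASS1, which makes argininosuccinate in arginine synthesis, went from 2.11, 2.10 and 2.12 to 5.52, 6.77 and 6.5 in L1236, while its L428 values were 13.40, 12.38 and 12.38 untreated and 10.78 to 11.73 treated. Its difference was 5.70 ± 0.56 (adjusted p = 0.000702), although the change of -1.55 in L428 alone did not pass (adjusted p = 0.0628).

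SPIB is an Ets-family transcription factor of B cells. It was expressed in L428 at 8.29, 9.27 and 9.04 untreated and 9.57, 9.30 and 9.39 treated. In L1236 it went from 2.44, 3.08 and 2.45 to 8.68, 9.27 and 9.62, overlapping the L428 range. The difference was 5.98 ± 0.44 (limma adjusted p = 0.000135), and both of its probe sets were higher (2.51 and 5.98). RRAD, a Ras-related GTPase, began at 4.27 to 4.54 in L1236 and ended at 9.12 to 11.36, against 12.48 to 13.42 in L428. Its difference of 6.02 ± 0.76 (adjusted p = 0.00329) held for 2 of 3 probe sets.

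Another group was low in both lines and responded in L1236 alone. ITIH3 encodes a heavy chain of the inter-alpha-trypsin inhibitors, which bind hyaluronan. It lay between 2.0 and 2.03 on all 9 arrays other than treated L1236, which read 9.92, 11.09 and 11.10. The difference was 8.70 ± 0.37 (limma adjusted p = 3.42e-06), or 6.70 with values under 4 set to 4. IGFBP3, a carrier of insulin-like growth factors, read 1.92 to 1.94 on the other 9 arrays and 8.43, 8.26 and 8.75 in treated L1236. Its difference was 6.57 ± 0.14 (adjusted p = 3.84e-08), and both of its probe sets were higher. No array of the 3 treated L1236 ones overlapped the others for either gene.

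EPCAM, an epithelial adhesion molecule, followed the same course, with 2.80 to 2.88 on 9 arrays and 8.45, 7.98 and 8.16 in treated L1236 (difference 5.39 ± 0.14, limma adjusted p = 1.02e-07). ANPEP, the cell-surface aminopeptidase CD13, moved from 2.61, 2.61 and 2.58 to 7.88, 8.59 and 8.75 in L1236 and stayed between 2.51 and 2.68 in L428. Its difference was 5.86 ± 0.26 (adjusted p = 4.44e-06), carried by 1 of 3 probe sets. SOST, the Wnt antagonist sclerostin, read 5.52, 9.73 and 10.03 in treated L1236 and 2.02 to 2.07 elsewhere. The spread between those 3 arrays was wide, and its difference was 6.39 ± 1.38 (adjusted p = 0.0356). It was called in only 2 of the 12 fits that each left out 1 array, those without treated L1236 array 1 or treated L428 array 1, with an adjusted p of up to 0.088 in the others.

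**Figure D3:**
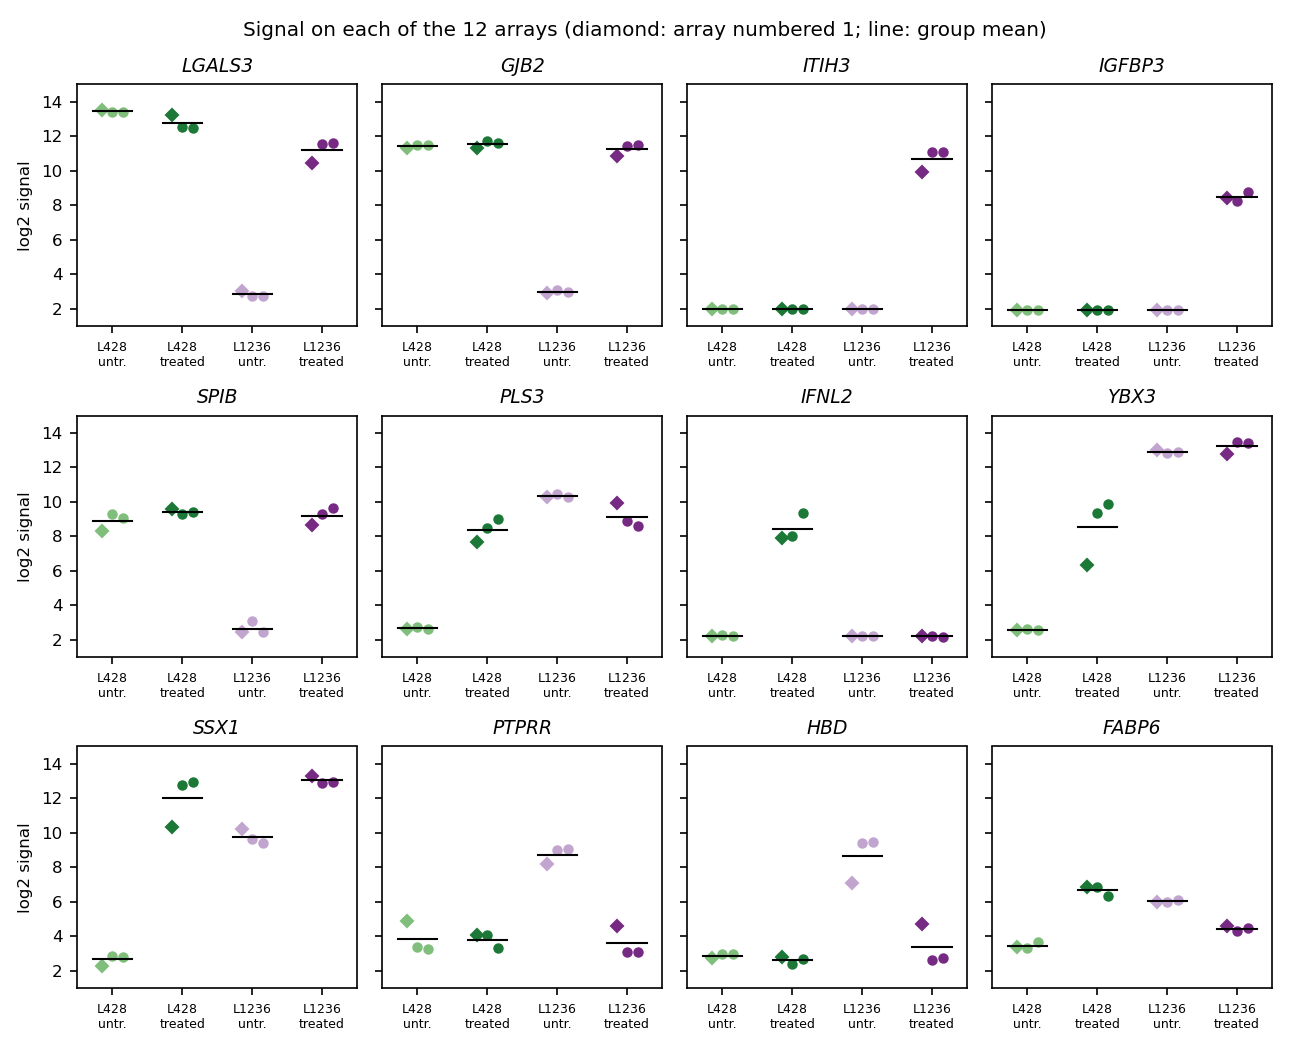
Log2 signal of 12 genes on every array, by group (L428 untreated, L428 treated, L1236 untreated, L1236 treated), with a diamond for the array numbered 1 and a line at the mean of 3 arrays. LGALS3, GJB2 and SPIB were low only in untreated L1236, ITIH3 and IGFBP3 rose only in treated L1236, PLS3, YBX3 and SSX1 were low only in untreated L428, IFNL2 rose only in treated L428, PTPRR and HBD fell in L1236, and FABP6 moved in opposite directions.

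Genes of epithelial junctions and keratin filaments also included called members, from different starting levels. Among 22 measured connexins, cadherins, claudins, keratins and EPCAM, 6 were called higher and 0 lower, beside 2.66% and 1.96% of all genes and with and without the arrays numbered 1, with a list median of 0.10 against -0.0095 over all genes. This list too was drawn up with GJB2 known to differ. KRT18, an intermediate-filament keratin, went from 2.35, 2.35 and 2.36 to 6.37, 7.64 and 7.31 in L1236 and from 2.36, 2.38 and 2.36 to 3.37, 3.02 and 2.99 in L428 (difference 3.99 ± 0.38, limma adjusted p = 0.000621). GJA1, connexin 43, was low in L428 in both states and rose in L1236 from 8.76, 8.64 and 8.69 to 11.23, 11.33 and 11.18 (difference 2.36 ± 0.21, adjusted p = 0.000366). KRT19 (2.03) and GJC1 (1.91, called in 3 of the 12 fits with 1 array left out) were the other called members. GJC1 was expressed in both untreated lines, at means of 9.03 in L428 and 6.33 in L1236. Its changes of -0.98 in L428 and 0.92 in L1236 did not pass, and 3 of its 4 probe sets were higher.

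Genes whose response was larger in L428 were led by PLS3, plastin 3, which bundles actin filaments. In L428 it went from 2.62, 2.75 and 2.63 to 7.65, 8.47 and 9.03. In L1236 it read 10.28, 10.48 and 10.30 untreated and 9.93, 8.89 and 8.61 treated. The treated lines overlapped, whereas the untreated ones were more than 7 units apart on every array. The difference was -6.93 ± 0.54 (limma adjusted p = 0.000193), with a rise of 5.72 in L428 that passed and a change of -1.21 in L1236 that did not (adjusted p = 0.068).

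YBX3, a cold-shock-domain protein that binds DNA and RNA, was similarly low only in L428. It went from 2.59, 2.64 and 2.58 to 6.34, 9.38 and 9.90 there, and read 12.76 to 13.48 in L1236 in both states. Array 1 of treated L428 was the lowest of its group, and the difference of -5.61 ± 1.08 (limma adjusted p = 0.0239) was -6.42 without the arrays numbered 1. It was called in 4 of the 12 fits that each left out 1 array, those without untreated L428 array 1, treated L428 arrays 1 or 3, or treated L1236 array 1, with an adjusted p of up to 0.0639 in the others. Of 4 YBX3 probe sets, 3 were lower and 1 gave 0.29. LBH, a transcriptional cofactor, differed by -5.52 ± 0.80 (adjusted p = 0.00667) and MARCKSL1, an actin-binding substrate of protein kinase C, by -4.55 ± 0.75 (adjusted p = 0.0124). Both were low in untreated L428, at 2.15 to 3.43 for LBH and 2.5 to 2.58 for MARCKSL1, and both kept their calls in all 12 such fits. CSTA, a cysteine protease inhibitor, differed by -4.93 ± 0.96 (adjusted p = 0.0244) and was called in 4 of the 12.

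Genes low in both lines that responded in L428 alone were fewer. CD38, an ectoenzyme abundant on plasma cells, read 3.54, 2.15 and 2.12 in untreated and 6.44, 9.37 and 9.45 in treated L428, and 2.08 to 2.18 on all L1236 arrays (difference -5.82 ± 1.04, limma adjusted p = 0.0177). Its adjusted p rose to at most 0.0521 with 1 array left out, and it was lost without untreated L1236 array 3 or untreated L428 arrays 2 or 3. CR2, the complement receptor CD21 of B cells, went from 3.09, 2.59 and 2.76 to 5.66, 5.79 and 5.71 in L428 and stayed at 2.40 to 2.48 in L1236. Its difference was -2.94 ± 0.15 (adjusted p = 8.68e-06), while its second probe set gave -0.04. PRAMEF12, one of a family of near-identical genes whose members the probes may not separate, differed by -5.22 ± 1.06 (adjusted p = 0.0286, called in 3 of the 12 fits). CCNA1, the germline cyclin A1, was low in both untreated lines and at least 2-fold higher after the drug in both by group means, although only the change in L428 passed. It read 8.01, 11.03 and 10.97 in treated L428 and 2.61, 5.11 and 2.96 in treated L1236 (difference -6.02 ± 1.22, adjusted p = 0.0285, called in 4 of the 12).

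Some differences came from falls in L1236. PTPRR, a receptor-type tyrosine phosphatase that acts on MAP kinases, read 8.18, 8.99 and 9.04 in untreated and 4.63, 3.09 and 3.12 in treated L1236. In L428 it lay between 3.29 and 4.92 in both states. It fell by 5.13 in L1236, and the difference was -5.08 ± 0.78 (limma adjusted p = 0.00919), with both probe sets lower. HBD, the delta chain of haemoglobin, fell from 7.08, 9.43 and 9.48 to 4.74, 2.62 and 2.75 in L1236 and was low on all L428 arrays. In both L1236 groups array 1 lay between its partners and the other group, and the difference of -5.04 ± 1.01 (adjusted p = 0.0271) was called in 4 of the 12 fits. Of 15 measured erythroid and megakaryocyte genes, 10 were low in all 4 groups and only HBD was called. Of all genes 2.66% were called higher and 1.96% lower. Without the arrays numbered 1 the counts were 1 higher and 3 lower, beside 11.4% and 12.4% of all genes. SH3D19, an SH3-domain protein, fell by 4.35 in L1236, from 7.10 to 8.49 untreated to 5.49, 2.38 and 3.08 treated, and differed by -4.33 ± 0.99 (adjusted p = 0.0437, called in 3 of the 12). Its second probe set gave -0.01.

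Among genes whose changes had opposite signs in the lines, FABP6, a bile-acid-binding protein of the ileum, separated all 4 groups. It rose from 3.41, 3.32 and 3.67 to 6.86, 6.88 and 6.37 in L428 and fell from 6.02, 6.02 and 6.13 to 4.61, 4.29 and 4.48 in L1236. The difference was -4.83 ± 0.21 (limma adjusted p = 3.95e-06), and 1 of its 3 probe sets gave 0.01. DSE, dermatan sulfate epimerase, rose by 2.20 in L428 and fell by 2.49 in L1236 (difference -4.69 ± 0.67, adjusted p = 0.00643), and 1 of its 4 probe sets gave 0.01. TBX19, a T-box factor of pituitary cells, fell by 2.77 in L1236, and its change of 1.11 in L428 did not pass (difference -3.89 ± 0.87, adjusted p = 0.0403, called in 2 of the 12 fits).

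The interferon system held the gene list with the most called members on 1 side, among 33 lists. Lists and members were chosen with earlier results of these data known, so their counts and ranking are no independent support. Of 47 measured interferon-stimulated genes, 19 were called lower in L1236 and 0 higher, beside 1.96% of all genes called lower, and 42 of 47 differences were below 0. The list median was -2.01. In their own line, 45 of the 47 rose in L428 (3.32% of all genes rose there) and 24 of the 47 rose in L1236 (8.59% of all genes), with median responses of 3.48 and 1.49. The median untreated difference of the list was 0.25 (L1236 minus L428). Without the arrays numbered 1, 37 of the 47 were called lower and 3 higher, beside 12.4% and 11.4% of all genes. Both treated arrays numbered 1 had the smallest response of their group, with mean list levels of 11.1 against 12.51 and 12.42 in L428, and 8.9 against 10.06 and 10.0 in L1236. The part of those arrays in the calls was not tested beyond leaving them out.

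IFIT1, which binds viral RNA lacking cap methylation, read 7.51, 6.38 and 6.38 untreated and 12.37, 13.73 and 13.62 treated in L428. L1236 arrays read 6.18, 5.90 and 5.70 untreated and 6.65, 8.0 and 7.45 treated. The lines did not overlap before treatment, with L428 slightly higher, and lay much farther apart after it. Its difference was -5.04 ± 0.68 (limma adjusted p = 0.00471). OAS1, a sensor of double-stranded RNA that activates RNase L through 2-5A, went from 5.04, 4.72 and 3.83 to 10.53, 12.10 and 11.92 in L428 and from 5.96, 5.20 and 5.54 to 5.76, 7.69 and 7.67 in L1236 (difference -5.51 ± 0.87, adjusted p = 0.00988). Both OAS1 probe sets were lower.

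RTP4, an interferon-induced chaperone-like protein, was among members that rose in L428 (by 3.41) and did not pass in L1236 (-0.25), with a difference of -3.66 ± 0.42 (limma adjusted p = 0.00212). PARP9, UBE2L6, OAS2, PLSCR1, USP18 and IFI44 differed by -2.78, -1.64, -4.87, -3.33, -2.85 and -4.13, with adjusted p from 0.00212 to 0.00953. IFI6, a mitochondrial interferon-induced protein, differed by -5.48 ± 1.12 (adjusted p = 0.029) and was called in 4 of the 12 fits, with an adjusted p of up to 0.0768. TRIM22, an antiviral ubiquitin ligase, rose in both lines, by 9.25 in L428 and 4.38 in L1236, and its difference of -4.87 ± 1.04 (adjusted p = 0.0339) was called in 3 of the 12. DDX60L, a helicase-like gene outside the list, read 7.97, 11.62 and 11.41 in treated L428 and 3.33, 4.0 and 3.51 in treated L1236 (difference -5.42 ± 1.18, adjusted p = 0.0366, called in 2 of the 12).

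Members that were not called included strong responders in both lines. IFI27 rose by 10.08 in L428 and 6.92 in L1236, with a 95% interval of the difference from -6.41 to 0.09. MX1 rose by 4.79 and 2.92 (interval -3.57 to -0.17, limma adjusted p = 0.243). For ISG15 the interval was -3.17 to -0.87 (adjusted p = 0.0622) and for RSAD2 it was -9.19 to -1.86 (adjusted p = 0.104). HERC6 (1.14), GBP2 (0.56), IFITM3 (0.41), IFIT5 (0.28) and ISG20 (0.24) were the 5 members with a difference above 0, none of them called.

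**Figure D4:**
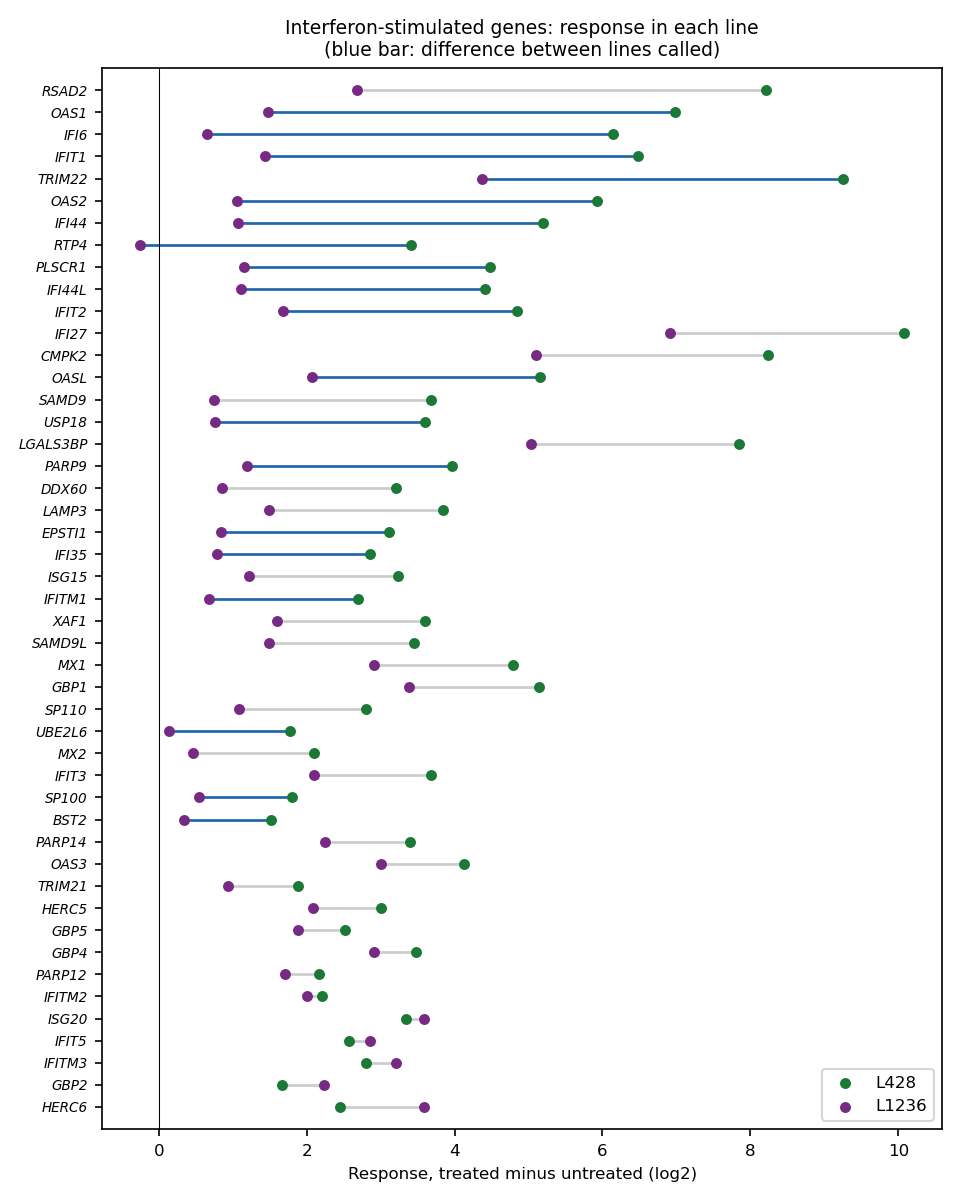
Responses (log2, treated minus untreated, means of 3 arrays) of the 47 interferon-stimulated genes in L428 (green) and L1236 (purple), ordered by the difference between the lines; the joining bar is blue for the 19 called genes. Most green points lie to the right of the purple ones, and both lie to the right of 0 for nearly all genes.

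Upstream of these genes, IFNL2, a type III interferon, carried the clearest difference. It read 2.23, 2.27 and 2.24 in untreated L428 and 7.90, 8.01 and 9.35 in treated L428. All 6 L1236 arrays lay between 2.18 and 2.23. The difference was -6.20 ± 0.44 (limma adjusted p = 0.000109), or -4.42 with values under 4 set to 4, and the probe may also read the near-identical IFNL3. IFNB1, IFNL1 and IFNG had the same sign without passing, and IFNE was low in all 4 groups. IFNB1 rose by 4.89 in L428 and changed by 1.21 in L1236 (difference -3.68 ± 1.16, interval -6.32 to -1.04, adjusted p = 0.133). IFNL1 rose by 5.15 in L428 and changed by 1.86 in L1236 (difference -3.29 ± 0.96, interval -5.46 to -1.13, adjusted p = 0.101). Of the 11 interferon and receptor genes measured, IFNL2 was the 1 called lower and 0 were higher, beside 1.96% and 2.66% of all genes, and without the arrays numbered 1 the counts were 5 lower and 2 higher. IFNLR1, the lambda receptor, rose in L1236 by 2.77 from a mean of 3.32, with a difference of 1.70 (interval 0.65 to 2.74, adjusted p = 0.0815).

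Of 16 nucleic acid sensors and adaptors, 2 were called lower and 0 higher, beside 1.96% and 2.66% of all genes, and 13 had a difference below 0 (list median -0.65). Of the 16, 8 were called lower and 1 higher without the arrays numbered 1, where 12.4% of all genes were lower and 11.4% higher. ZBP1, a sensor of Z-form nucleic acid, went from 3.94, 4.71 and 3.91 to 6.65, 8.20 and 7.69 in L428 and stayed at 2.33 to 2.40 in L1236 (difference -3.37 ± 0.50, limma adjusted p = 0.00772). EIF2AK2, the RNA-activated kinase PKR, rose by 1.76 in L428 and changed by 0.14 in L1236 (difference -1.62 ± 0.28, adjusted p = 0.0155). RIGI, which detects RNA with a free triphosphate end, rose in both lines, by 6.16 and 2.49, and its difference of -3.67 missed the threshold (adjusted p = 0.0551). MAVS and STING1, the adaptors of the RNA and DNA pathways, differed by -0.05 and -0.03. Of 8 interferon regulatory factors measured, 0 were called and 3 had an unadjusted p under 0.05 in limma's test, and without the arrays numbered 1, 3 were called higher and 2 lower. IRF7 rose by 4.76 in L428 and 2.75 in L1236 (interval of the difference -3.59 to -0.43, adjusted p = 0.172), and IRF9 by 3.41 and 1.61 (interval -3.19 to -0.41, adjusted p = 0.163). IRF5 had the smallest adjusted p of the 8, at 0.0739.

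Windows around a match to the interferon-stimulated response element are shown for 4 genes of this system that were called, since this element is common in the promoters of interferon-induced genes. The motif searched was TTTC, any 2 bases and TTTC again, which on the other strand reads GAAA, any 2 bases and GAAA, in the 250 bases before each RefSeq start (GRCh38.p14). Capitals mark every match, including overlapping or second ones, and the sequences run 5′ to 3′ on the strand of the gene.
IFIT1, chr10:89392482-89392541, plus strand: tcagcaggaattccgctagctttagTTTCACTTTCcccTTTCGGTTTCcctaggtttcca
IFI6, chr1:27672314-27672373, minus strand: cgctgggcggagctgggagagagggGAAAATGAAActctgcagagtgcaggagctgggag
RTP4, chr3:187368318-187368377, plus strand: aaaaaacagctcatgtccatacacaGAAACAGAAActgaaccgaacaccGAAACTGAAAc
IFNL2, chr19:39268195-39268254, plus strand: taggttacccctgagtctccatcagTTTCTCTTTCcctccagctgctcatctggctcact

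The first match began 116 bases before the start in IFIT1, 156 in IFI6, 42 in RTP4 and 176 in IFNL2. A match was present in 26 of the 37 interferon-stimulated genes with a promoter sequence (70.3%), beside 3.39% of all 15360 promoters. Among called members it was 10 of 14 (71.4%), and among members not called 16 of 23 (69.6%). The share with a match was close in called and other members. The same windows were poor in CpG, with a median of 6 over the list and 4 over its called members, against 17 over all genes.

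Antigen presentation gave fewer calls. Of 18 MHC class I genes, 3 were called lower in L1236 and 0 higher (list median -0.24), beside 1.96% and 2.66% of all genes, and without the arrays numbered 1 the counts were 6 lower and 1 higher. The immunoproteasome subunit PSMB8 went from 10.66, 10.56 and 10.37 to 11.75, 11.70 and 11.79 in L428 and stayed between 12.88 and 13.39 in L1236 (difference -1.04 ± 0.16, limma adjusted p = 0.0102). PSMB9, its partner subunit, rose in both lines, by 1.33 and 0.64 (difference -0.69 ± 0.13, adjusted p = 0.0229), and ERAP1, which trims peptides, differed by -1.04 ± 0.21 (adjusted p = 0.0304). These last were called in 8 and 6 of the 12 fits, and 4 of 5 ERAP1 probe sets were lower. Of 15 MHC class II genes, 0 were called, 3 had an unadjusted p under 0.05, and 5 were called lower and 1 higher without the arrays numbered 1. HLA-DRA was -0.34 (interval -1.22 to 0.53), and HLA-DPA1, the member with the smallest adjusted p (0.202), was -0.83.

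NF-kappaB and MAPK response genes had the highest medians among the gene lists, which were chosen with earlier results of these data known. Of 33 NF-kappaB subunits, inhibitors and targets, 5 were called higher and 1 lower, beside 2.66% and 1.96% of all genes, with a median of 1.02 and 26 of 33 above 0. Without the arrays numbered 1 the counts were 22 and 4, beside 11.4% and 12.4% of all genes. In L1236, 16 of the 33 rose, where 8.59% of all genes did, and in L428 4 did, against 3.32%. LTB, lymphotoxin beta, went from 3.90, 4.38 and 3.89 to 6.26, 6.83 and 6.81 in L1236 and stayed between 3.53 and 3.73 in L428 (difference 2.55 ± 0.24, limma adjusted p = 0.000616). Its second probe set gave 0.06. CD83, a surface marker of activated antigen-presenting cells, read 12.11 to 12.72 on all L428 arrays and went from 7.47, 7.71 and 7.84 to 10.03, 12.28 and 12.34 in L1236 (difference 3.55 ± 0.75, adjusted p = 0.0326). TNFAIP3, the ubiquitin-editing inhibitor A20, went from 10.68 to 11.18 up to 12.55 to 13.74 in L1236 and lay between 13.57 and 14.20 in L428 (difference 1.98 ± 0.41, adjusted p = 0.0299). Calls for CD83 and TNFAIP3 held in 2 and 3 of the 12 fits. NFKBIB (1.05), an inhibitor of the pathway, and MAP3K14 (1.31), the kinase NIK, were the other 2 called higher. CXCL10, a chemokine that interferon also induces, was the member called lower (-3.40 ± 0.60, adjusted p = 0.0164, lost without untreated L1236 array 3). The subunits NFKB1 (1.42, adjusted p = 0.203) and RELA (1.01, adjusted p = 0.209) did not pass.

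Of 34 MAPK and AP-1 response genes, 4 were called higher and 0 lower, beside 2.66% and 1.96% of all genes, 31 had a difference above 0, and the median was 0.89. A rise was called for 21 of the 34 in L1236 and for 4 in L428, beside 8.59% and 3.32% of all genes. The difference was called higher for 22 and lower for 1 without the arrays numbered 1, beside 11.4% and 12.4%. PHLDA1, a growth-factor-induced gene, went from 7.14, 6.16 and 6.29 to 9.54, 10.88 and 10.80 in L1236 and lay between 10.85 and 11.51 in L428 (difference 3.57 ± 0.54, limma adjusted p = 0.00879), with all 6 of its probe sets higher. DUSP6, a phosphatase that ERK signalling induces and that dephosphorylates ERK, went from 8.63, 8.26 and 7.96 to 10.90, 10.90 and 11.01 in L1236 and lay between 11.28 and 12.35 in L428 (difference 2.13 ± 0.34, adjusted p = 0.0108). For both genes L1236 started below L428 and ended nearer to it. SPRED2 (1.56) and EGR4 (2.32) were the other called members, with adjusted p of 0.0326 and 0.0498, called in 4 and 1 of the 12 fits. Each had 3 probe sets, of which 2 were higher. FOS and EGR1 rose in L1236, by 4.65 and 3.72, with intervals of the difference from -2.21 to 4.82 and from -0.96 to 4.52.

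Within the JAK-STAT list 3 of 36 were called higher and 1 lower (median 0.39), beside 2.66% and 1.96% of all genes. Without the arrays numbered 1 the counts were 15 higher and 6 lower, where 11.4% and 12.4% of all genes were called. STAT3, a cytokine-activated transcription factor, went from 10.40, 10.10 and 9.96 to 11.16, 11.50 and 11.50 in L1236 and lay between 12.05 and 12.29 in L428 (difference 1.31 ± 0.18, limma adjusted p = 0.00566, with all 4 probe sets higher). JAK2, a kinase upstream of it, rose by 1.05 in L428 and changed by -0.45 in L1236 (difference -1.49 ± 0.26, adjusted p = 0.0159, with all 3 probe sets lower). IL13, a cytokine that Reed-Sternberg cells secrete and respond to, read 7.02, 8.62 and 8.80 untreated and 8.26, 10.32 and 10.43 treated in L428, and 8.26, 6.99 and 6.99 untreated and 12.57, 14.58 and 14.70 treated in L1236. Treated L1236 lay above all other arrays. The difference was 5.01 ± 1.15 (adjusted p = 0.0447), called in 3 of the 12 fits, and 5.99 without the arrays numbered 1. JAK1 (0.51) was called in 1 of the 12, and 3 of its 5 probe sets were higher, with the lowest at -0.65. STAT5A was 2.08 (adjusted p = 0.0721).

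The defining marker of Reed-Sternberg cells was expressed in every group. TNFRSF8 (CD30) lay at means of 9.57 to 10.39 in the 4 groups, and its difference of 0.23 had an interval from -0.33 to 0.80. Of 22 such markers, 3 were called higher and 0 lower, beside 2.66% and 1.96% of all genes, namely IL13, CCL17 and LGALS1. Leaving out the arrays numbered 1 gave 9 higher and 0 lower. CCL17, the chemokine TARC that attracts T cells, went from 11.91, 11.92 and 11.86 to 14.78, 14.92 and 15.01 in L1236 and from 13.41, 13.97 and 14.10 to 14.93, 14.35 and 14.34 in L428 (difference 2.29 ± 0.28, limma adjusted p = 0.00298). The treated lines overlapped only through treated L428 array 1, from starting levels that did not overlap. Treated L428 arrays 2 and 3 lay below all treated L1236 arrays.

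Members of the B-cell programme were called in both directions. Of 35, the response was higher in L1236 for 2 (SPIB and CD72) and lower for 3 (CD38, CR2 and CD27), beside 2.66% and 1.96% of all genes. Without the arrays numbered 1 the counts were 4 and 8, beside 11.4% and 12.4%. The list had a median of 0.0035 that was -0.0452 under median centring, and 14 members, MS4A1 (CD20) among them, were low in all 4 groups. CD27, a TNF receptor of memory B cells, fell from 11.39, 11.72 and 11.48 to 10.20, 9.98 and 10.00 in L1236 and rose from 3.33, 3.34 and 3.33 to 4.02, 3.89 and 3.65 in L428 (difference -1.99 ± 0.16, limma adjusted p = 0.000188). PAX5, the B-cell identity factor, differed by -0.39 (interval -1.29 to 0.51) from starting levels of 5.32 in L428 and 11.78 in L1236. Of 12 plasma-cell genes, PRDM1, the Blimp-1 repressor, was called higher (1.64 ± 0.14, adjusted p = 0.000285) and CD38 lower, and without the arrays numbered 1 the counts were 3 higher and 2 lower. PRDM1 went from 6.06, 5.97 and 6.21 to 7.75, 7.80 and 7.66 in L1236 and lay between 9.68 and 10.05 in L428. Of 16 genes that antagonise B-cell fate, 0 were called, 4 had an unadjusted p under 0.05, and without the arrays numbered 1 the counts were 6 higher and 1 lower. MSC came nearest (0.85, adjusted p = 0.0592).

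Cancer-testis antigens, germline genes that demethylation commonly releases, included members that rose in each line. In L1236 17 of 25 rose and in L428 10 did, beside 8.59% and 3.32% of all genes, with median responses of 2.85 and 2.39. The difference was called higher for 1 and lower for 2, beside 2.66% and 1.96% of all genes, with a list median of 0.11. Leaving out the arrays numbered 1 changed these counts to 7 higher and 11 lower, beside 11.4% and 12.4%, and the median to -0.45. MAGEA6 rose by 9.17 in L428 and 10.11 in L1236 (interval of the difference -0.57 to 2.46), and MAGEA12 by 8.94 and 8.75 (interval -2.26 to 1.88). SSX1 went from 2.32, 2.88 and 2.84 to 10.35, 12.79 and 12.92 in L428 and from 10.20, 9.65 and 9.44 to 13.32, 12.91 and 12.93 in L1236. The treated levels of arrays 2 and 3 nearly coincided, while the untreated means were 2.68 in L428 and 9.76 in L1236. The difference was -6.05 ± 0.85 (limma adjusted p = 0.00591). SSX3 was also called lower (-4.23 ± 0.78, adjusted p = 0.02, called in 6 of the 12 fits), and probes may not separate SSX members. Of 3 SSX3 probe sets, 2 were lower and 1 gave 0.15. GAGE1, of another near-identical family, was higher (3.58 ± 0.47, adjusted p = 0.00434). Of 29 germline, meiosis and piRNA genes, PIWIL2 (2.37), TDRD9 (2.19) and DDX4 (1.80) were called higher and 0 lower, and without the arrays numbered 1 the counts were 8 and 1. The PIWIL2 difference held for 2 of 3 probe sets. DDX4 rested on signals of 3.57 to 4.47 in treated L1236, and its difference was 0.16 with values under 4 set to 4. TDRD9 was not called without the arrays numbered 1 (limma adjusted p = 0.0601), and was called in 5 of the 12 fits with 1 array left out.

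Of 12 replication-dependent histone genes, 3 were called lower and 0 higher (median -1.18), beside 1.96% and 2.66% of all genes, and 11 rose in L428 and 9 in L1236, beside 3.32% and 8.59%. Without the arrays numbered 1 the counts were 7 lower and 1 higher, beside 12.4% and 11.4%. H2AC6, an H2A gene whose probe may read its close copies, went from 5.63, 3.13 and 2.66 to 9.61, 10.96 and 10.97 in L428 and lay between 10.55 and 11.99 on all L1236 arrays (difference -6.82 ± 1.10, limma adjusted p = 0.0112). H1-2 (-1.73, called in 6 of the 12 fits with 1 array left out) and H1-4 (-0.78) were the others.

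Calls among genes of apoptosis and growth arrest stand beside 2.66% of all genes higher and 1.96% lower with all arrays. They were more without the arrays numbered 1, where 11.4% and 12.4% of all genes were called. Of 14 pro-survival genes, 0 were called, 4 had an unadjusted p under 0.05, and 7 were called higher and 1 lower without the arrays numbered 1. BCL2A1, an NF-kappaB-driven relative of BCL2, rose by 3.55 in L1236 and changed by 0.71 in L428 (interval of the difference 1.17 to 4.52, limma adjusted p = 0.0711). Of 25 pro-death genes, 2 were called lower and 0 higher, BIK (-1.80, adjusted p = 0.0333) and CASP10 (-2.51, adjusted p = 0.0412), in 4 and 2 of the 12 fits. Of the 25, 10 were called lower and 2 higher without the arrays numbered 1. Among p53 targets 2 of 24 were higher, TP53INP1 (3.36 ± 0.67) and TP53I3 (3.14 ± 0.59), with adjusted p of 0.0275 and 0.0211. They were called in 6 and 8 of the 12 fits, with an adjusted p of up to 0.0764 and 0.0589, and without the arrays numbered 1 the counts of the list were 7 higher and 4 lower. CDKN1A, the p53-driven inhibitor p21, rose in both lines, by 2.46 in L428 and 3.26 in L1236, with an interval of the difference from -1.04 to 2.65. Of 6 CDK inhibitors, CDKN1C (p57, imprinted) went from 3.79, 4.19 and 3.38 to 6.81, 7.37 and 6.92 in L1236 and differed by 2.42 ± 0.45 (adjusted p = 0.0198, called in 10 of the 12 fits), and CDKN2D (p19) by 1.69 ± 0.31 (adjusted p = 0.0199). The list had 3 higher and 1 lower without the arrays numbered 1. Of 18 imprinted genes, CDKN1C and GRB10 (2.44 ± 0.48, adjusted p = 0.0262) were called. GRB10 was called in 6 of the 12 fits and not without the arrays numbered 1 (limma adjusted p = 0.0832), where the list had 2 higher and 3 lower.

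The machinery on which the drug acts gave no called difference with all arrays. Of 18 DNA methylation genes, 0 were called and 1 had an unadjusted p under 0.05. Of 20 genes for uptake and metabolism of decitabine, 0 were called and 5 had an unadjusted p under 0.05. Over all 19775 genes 4.62% were called, a share at which lists this short can hold 0 calls, and 3313 had an unadjusted p under 0.05. Without the arrays numbered 1, 4 of the 18 and 5 of the 20 were lower and 0 and 1 higher, beside 12.4% and 11.4% of all genes. DNMT1, the maintenance methyltransferase that the drug traps, lay at means of 12.12 to 13.23, and its difference of -0.19 had an interval from -0.62 to 0.25. DCK, the kinase that activates decitabine, differed by -0.53 (interval -1.64 to 0.57). SAMHD1, which breaks down its triphosphate and is itself interferon-induced, rose by 1.71 in L428 and changed by 0.07 in L1236 (interval -2.84 to -0.45, limma adjusted p = 0.139). Of 41 cell-cycle and replication genes, 0 were called and 10 had an unadjusted p under 0.05, with MCM10 nearest (1.33, adjusted p = 0.0588). Without the arrays numbered 1 the counts were 4 higher and 14 lower, beside 11.4% and 12.4% of all genes. Among 11 housekeeping genes 0 were called and 1 had an unadjusted p under 0.05, and without those arrays 0 were higher and 3 lower.

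Some ligands and receptors that shape the tumour's surroundings were called, and the counts stand beside 2.66% of all genes called higher and 1.96% lower. Of 33 TNF-family genes, LTB was higher and TNFSF13B and TNFSF13 lower, and without the arrays numbered 1 the counts were 8 higher and 3 lower, beside 11.4% and 12.4% of all genes. TNFSF13B, the B-cell survival factor BAFF, went from 5.81, 5.41 and 5.26 to 7.99, 10.43 and 10.41 in L428 and lay between 1.65 and 2.49 in L1236 (difference -3.93 ± 0.84, limma adjusted p = 0.0333, called in 3 of the 12 fits). TNFSF13, the related ligand APRIL, rose by 1.14 in L428 and fell by 0.82 in L1236 (difference -1.96 ± 0.31, adjusted p = 0.00969). Of 42 chemokines and receptors, CXCR5 (3.76 ± 0.54), CX3CL1 (3.71 ± 0.52) and CCL17 were higher and CXCL10 lower, and without the arrays numbered 1 the counts were 13 higher and 8 lower. CXCR5, the receptor that guides B cells to follicles, went from 6.03, 5.47 and 5.07 to 8.25, 9.56 and 9.83 in L1236 and lay between 2.73 and 2.96 in L428. CX3CL1, fractalkine, went from 3.33, 3.44 and 2.68 to 5.83, 6.94 and 7.07 in L1236 and lay between 10.73 and 11.52 in L428.

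Most T-cell and NK-cell markers and most myeloid markers were low in every group, while most stromal, endothelial and epithelial markers were not. Of 23 T-cell and NK-cell markers 13, of 17 myeloid markers 13, and of 19 stromal, endothelial and epithelial markers 8 were low in all 4 groups, CD3E, CD14, CD163, LYZ, MPO, CDH5, DCN and LUM among them. The mean level of the T-cell and NK-cell list was 3.08 to 3.19 in untreated and 3.37 to 3.45 in treated L428, and 3.14 to 3.24 in untreated and 3.91 to 3.97 in treated L1236. In the same order of groups the myeloid list lay at 2.79 to 2.85, 3.15 to 3.25, 2.91 to 2.94 and 3.35 to 3.76, and the stromal, endothelial and epithelial list at 4.42 to 4.67, 4.85 to 4.99, 4.66 to 4.76 and 5.91 to 6.07. Called T-cell and NK-cell markers were CD8A (3.37), CD3D (2.72), ZAP70 (1.83) and LCK (1.71), all higher, with CD3D and LCK called in 3 and 5 of the 12 fits with 1 array left out. With values under 4 set to 4, CD8A was 1.33, ZAP70 0.39 and LCK 0.17. TYROBP, a signalling adaptor of myeloid and NK cells, rose in both lines, by 4.08 in L428 and 6.04 in L1236 (difference 1.97 ± 0.31, limma adjusted p = 0.00974), and with ITGAM (1.49) made up the myeloid calls. THY1, the stromal and thymocyte surface protein CD90, went from 6.21, 6.15 and 6.16 to 12.43, 11.83 and 12.10 in L1236 and from 2.60, 2.64 and 2.63 to 3.39, 4.12 and 4.37 in L428 (difference 4.61 ± 0.33, adjusted p = 0.000106). COL1A1 (2.07, called in 3 of the 12 fits), EPCAM, KRT18 and KRT19 were the other called members of the stromal, endothelial and epithelial list. The counts of higher and lower calls were 4 and 0, 2 and 0, and 5 and 0 for the 3 lists, beside 2.66% and 1.96% of all genes, and 5 and 1, 2 and 0, and 6 and 1 without the arrays numbered 1. The part of other cells in these results was not tested.

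**Figure D5:**
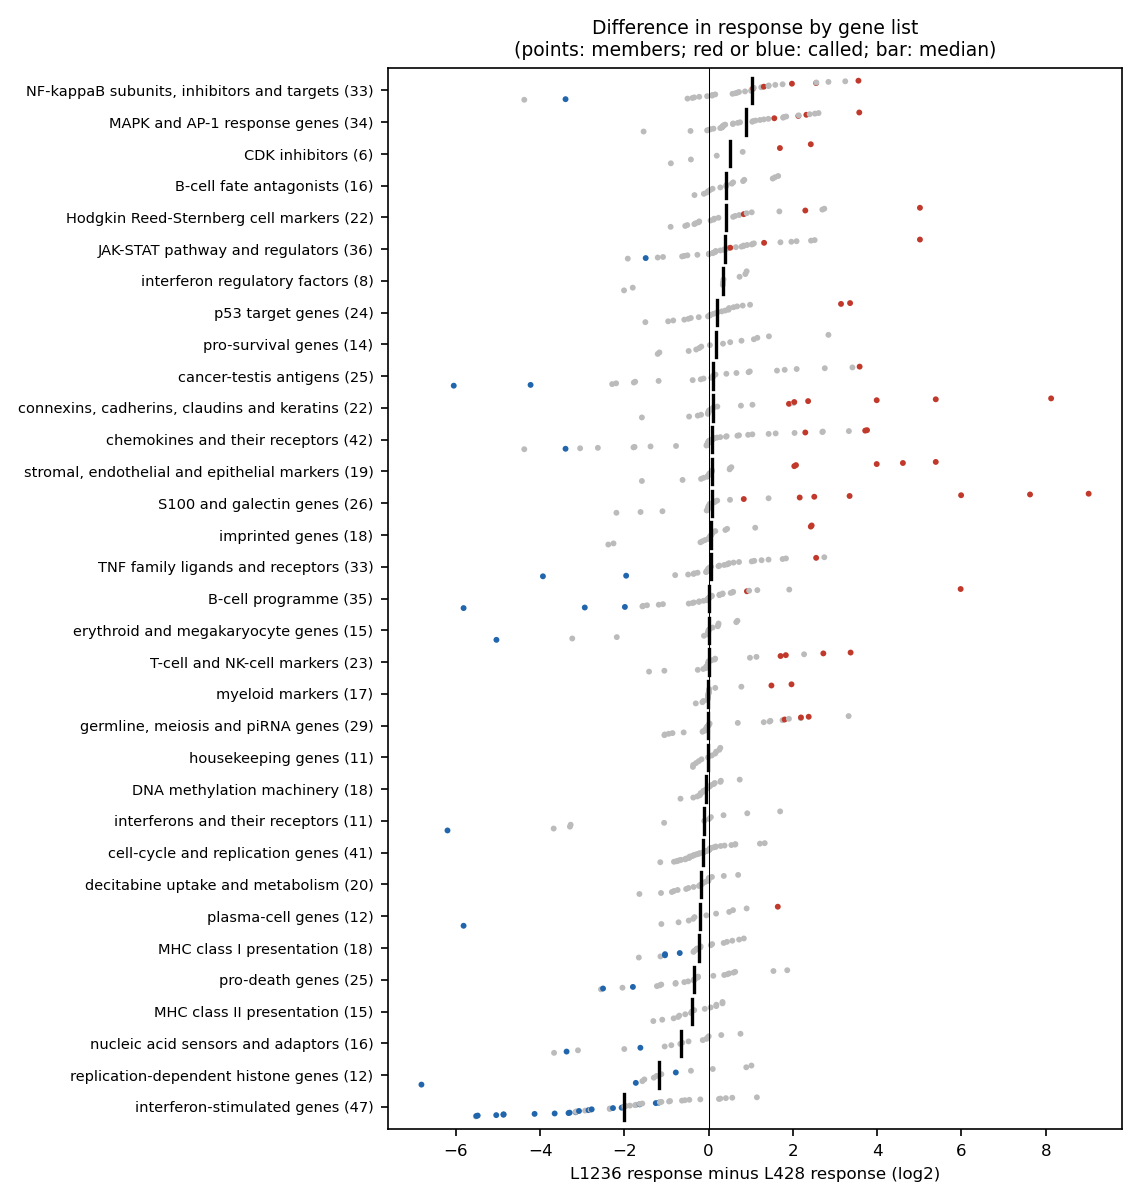
Difference in response (L1236 minus L428, log2) of every measured member of the 33 gene lists, ordered by list median (black bar), with called members in red (higher in L1236) or blue (lower) and the number measured in brackets. The interferon-stimulated genes lie farthest to the left (median -2.01, 19 of 47 called) and the NF-kappaB list farthest to the right (median 1.02, 5 of 33 called higher). Lists and members were chosen with earlier results of these data known.

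CpG content before the start of the gene was compared between classes of starting level, as a description. Called genes with a higher response in L1236 had a median of 20 CpG in 250 bases and those with a lower response 17, the value of all genes. The 134 genes low in both lines and higher after the drug in L1236 alone had a median of 17, where all genes low in both untreated lines had 8.9. The 21 higher in L428 alone had 16.8. The 58 genes low in L1236 alone and higher there after the drug had 18, near the 17.3 of all genes with that starting pattern, and the 29 of the mirror class had 17.2 against 16. In the 65 genes expressed in L1236, low in L428 and at least 2-fold lower after the drug in L1236, PTPRR and HBD among them, the median was 8. Promoter sequences were at hand for 103, 16, 44, 20 and 46 genes of these classes.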

How the data were processed

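The deposited table holds log2 signals for 54675 probe sets on 12 arrays, which per the submitters' processing notes the authors made with RMA. The log2 scale was read from the values. The version of RMA is not given in the sources used here. The design text names another array type than the probe set identifiers do, and the identifiers were followed. Of the probe sets, 41097 carried 1 gene in the platform annotation, 1801 several and 11777 none, and 62 were controls. Names were updated through Entrez identifiers to RefSeq GRCh38.p14, with 41037 matched. Each of 19775 genes was represented by its brightest probe set, by the average of the 12 arrays. limma 3.58.1 in R 4.3.3 fitted all 4 groups together (lmFit, eBayes, no covariate), with the interaction as a contrast and two-sided p-values adjusted by Benjamini-Hochberg. The script was tested on simulated data. With 3 arrays per group, their number limits the precision. Groups follow the sample descriptions.

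Genes were named by a rule. It took the 12 largest called differences in each direction whose treated arrays all lay beyond the untreated ones in the line that responded more. It then took 3 per pair of response categories with at least 5 called genes, and up to 4 called members per list by size, or the member with the smallest adjusted p where none was called. Other list members given with values were chosen after their values were seen, for their role. Members and lists were chosen with earlier results of these data known. A few called genes are not reported here. Alternatives were other scalings and probe set rules, a floor of 4, array weights, a replicate block and arrays left out.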

Additional observations from a re-analysis of the deposited data

Results flagged for a closer look

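The test of the difference between the lines, limma's interaction term, put 914 genes past the threshold, and the genes with the largest differences are listed here with their values (log2, L1236 minus L428). The response, not the level, was higher in L1236 for LGALS3 (9.02), ITIH3 (8.7), GJB2 (8.13), S100A11 (7.63), RFLNB (7.01), CTHRC1 (6.69), PRAC1 (6.63), IGFBP3 (6.57), SOST (6.39), ICAM3 (6.18) and RRAD (6.02). It was lower in L1236 for PLS3 (-6.93), H2AC6 (-6.82), IFNL2 (-6.2), SSX1 (-6.05), CCNA1 (-6.02), CD38 (-5.82), YBX3 (-5.61), LBH (-5.52), OAS1 (-5.51), IFI6 (-5.48), DDX60L (-5.42) and PRAMEF12 (-5.22). FABP6 (-4.83), DSE (-4.69) and TBX19 (-3.89) were at least 2-fold lower after the drug in L1236 and higher in L428 by group means. So was PLS3. The TBX19 change in L428 and the PLS3 change in L1236 did not pass. Of these 26 genes, SOST, CCNA1, CD38, YBX3, IFI6, DDX60L, PRAMEF12 and TBX19 lost their call in at least 1 fit with a single array left out. Groups of 3 arrays were not tested for outlying samples.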

How the results depend on the processing

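The interaction count of 914 was 861 with cyclic loess, 847 with an intensity trend, 872 with probe set means, 967 with median centring and 1044 with values under 4 set to 4. It moved to 5718 with array weights, whose estimate did not converge, to 4697 without the 4 arrays numbered 1, and to between 442 and 2112 with 1 array left out. The response in L1236 gave 9726 with array weights, 14098 with median centring, 6817 without the arrays numbered 1 and 1506 to 4488 with 1 array left out. The response in L428 gave 6561, 12842, 5717 and 368 to 3532 in the same order, and 206 from the L428 arrays alone. The untreated difference between lines gave 8760 with array weights and 4858 to 6237 with 1 array left out. With low defined as under 3, the response patterns low in L1236 and low in L428 held 34 and 13 genes. Under 6, the latter held 44, and genes low in both lines and up in L428 only numbered 39. A change of at least 4-fold left 19 of the 29. Array medians over genes, which median centring sets equal, were 4.39 to 4.6 in untreated and 4.78 to 4.99 in treated L428. In L1236 they were 4.62 to 4.79 untreated and 5.17 to 5.22 treated. The cause of the shifts in counts was not tested.

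Replicate numbers were not taken to pair the arrays, since not every correlation between deviations of same-numbered arrays was over 0.1. The correlations were 0.16 to 0.25 between untreated and treated L428, 0.11 to 0.36 between the untreated lines and 0.24 to 0.4 between the treated lines. They were -0.02 to 0.06 between untreated and treated L1236, -0.12 to 0.02 between treated L428 and untreated L1236, and 0.05 to 0.24 between untreated L428 and treated L1236. With the replicate number as a block the interaction was called for 781 genes, the response in L1236 for 3457 and the response in L428 for 1129. Of the 98 called genes among those named, 82 kept their call with the block, 96 without the arrays numbered 1 and 88 to 98 under the other settings that kept all arrays and genes, and 57 kept it in all 12 fits with 1 array left out. The 16 not called with the block were SOST, IFI6, HBD, SH3D19, TLN1, RIPOR1, GJC1, TDRD9, PSMB9, TNFAIP3, EGR4, SPRED2, TNFSF13B, CASP10, TP53I3 and CD3D, with limma adjusted p of 0.0502 (TNFAIP3) to 0.0829 (CASP10). Among the results and settings compared, no called direction was reversed. Genes near the lower end of the signal have only an approximate fold. Among the 98 called genes, 50 had several probe sets, and for 29 of the 50 all probe sets had the same sign.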

Other observations

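Of the 914 called genes, 8 had a signal at least 2-fold lower after the drug in L428 and under 2-fold changed in L1236. AGAP4, an Arf GTPase-activating protein gene of a family with near-identical copies, read 4.97 to 6.21 in untreated and 3.10 to 3.66 in treated L428 and was low in L1236. It fell by 2.13 in L428 (limma adjusted p = 0.00519), and the difference was 1.80, called in 3 of the 12 fits with 1 array left out. TSPAN12, a tetraspanin, fell by 1.66 in L428, from 6.98 to 7.43 down to 5.08 to 6.06, and lay between 2.74 and 2.86 in L1236 (difference 1.59, called in 6 of the 12). CRAT, the mitochondrial carnitine acetyltransferase, went both ways. It fell by 0.92 in L428 (adjusted p = 0.0128) and rose by 0.88 in L1236 (adjusted p = 0.00659), so that levels of 6.20 to 6.75 and 3.87 to 4.06 before the drug became 5.34 to 5.74 and 4.7 to 5.04 after it. Its difference of 1.80 was called in all 12 such fits.

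PDLIM2, a PDZ-LIM protein, and LSP1, a leukocyte actin-binding protein, rose in L1236 by 2.64 and 2.43. Neither change in L428 passed (-1.23 and -1.02), and the differences were 3.87 for PDLIM2, where the second probe set gave -0.01, and 3.46 for LSP1, called in 5 of the 12 fits.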
